A study of Rattus norvegicus with 6 samples.

Results

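The mRNAs of 7 enzymes and regulators of hepatic glycogen were followed across 6 sequencing libraries of rat liver. They are Gys2, Ppp1r3b, Ppp1r3c, Gbe1, Ugp2, Pgm1 and Pygl, chosen by name for their roles in glycogen synthesis and breakdown, and each matched 1 locus among 32158 loci with a gene symbol. The animals were male obesity-prone Sprague Dawley rats, given either a control diet (CD) or a Western diet (WD), which is rich in milk fat and sucrose and holds added cholesterol, for 2 weeks. Their age is not given in the sources used here. The rats of both diets were fasted for 16 h and then refed their own diet for 1 h before the liver was taken. RNA was measured as total RNA, as the light fraction of a sucrose gradient (mRNAs carrying 3 or fewer ribosomes) and as the heavy fraction (4 or more ribosomes). Each library was made from a pool of 3 rats of a diet. With 1 library for each diet and kind of RNA, no value has a replicate, and no difference between the diets could be tested.

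Glycogen is the branched glucose polymer in which the liver stores glucose after a meal and from which it releases glucose during a fast. For synthesis, phosphoglucomutase (Pgm1) converts glucose 6-phosphate to glucose 1-phosphate, UDP-glucose pyrophosphorylase (Ugp2) turns this into UDP-glucose, glycogen synthase (Gys2 in liver) lengthens the chains, and the branching enzyme (Gbe1) adds branch points. Liver glycogen phosphorylase (Pygl) cleaves glucose units from the chain ends and thus starts breakdown. Ppp1r3b (also called GL) and Ppp1r3c (also called PTG) are targeting subunits that bring protein phosphatase 1 to the glycogen particle, where it dephosphorylates and thereby activates the synthase and inactivates the phosphorylase.

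Levels are given in FPKM, a level of sequenced fragments taken per transcript length and per library size, which can therefore be compared between genes. For 4 of the 7 genes (Gys2, Ppp1r3c, Pgm1 and Pygl), the deposited FPKM values are whole multiples, within the rounding of the values, of a step for each gene and library, from which the number of sequenced fragments behind each value could be inferred. These numbers give a 95% counting interval for a ratio between libraries. Such an interval compares 2 pooled libraries and not the diets, and it covers counting error only, since PCR copies cannot be told from separate molecules here. Ppp1r3b, Gbe1 and Ugp2 have 2 or 3 annotated start sites, no whole numbers were found for them, and the bounds that the software deposited with each value are their only measure of error. Those bounds are wide. In each diet comparison and in each comparison of the heavy with the light fraction, the bounds of both libraries overlapped for all 7 genes, and in total RNA the bounds of CD and WD were separate at 4 of the 10201 loci compared.

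Over the 7888 loci compared that had inferred fragments, the libraries held between 291322 and 619328 fragments, the highest number being that of the WD light fraction. That library also stood apart in the sum of its red blood cell markers (Hbb, Hba1, Hba2, Alas2 and Slc4a1). It was 505 FPKM there and between 18.0 and 99.4 FPKM in the other 5 libraries. Globins made up most of this sum, with Hbb at 242, Hba1 at 163 and Hba2 at 91 FPKM. Alas2 went the other way, at 19.7 FPKM in the CD and 7.18 FPKM in the WD light fraction. Slc4a1 was at 0.896 and 2.2 FPKM. The part of these markers in the light fraction results below was not tested. Hepatocyte markers (Alb, Ttr, Apoa1, Tat, Cps1, Hnf4a and Cyp2e1) summed to between 31500 and 110000 FPKM, and all 7 were detected in every library. Kupffer cell and macrophage markers were higher in WD total RNA for 7 of 7 genes (sum, 73.3 FPKM in CD and 97.2 FPKM in WD), and so were 4 of 4 endothelial markers found (53.4 and 70.9 FPKM) and 4 of 5 stellate cell markers (42.6 and 47.8 FPKM), whereas 5 of 5 red blood cell markers were lower there (55.4 and 29.7 FPKM). Of the hepatocyte markers, 4 were higher and 3 lower in WD total RNA (sum, 61200 FPKM in CD and 55000 FPKM in WD). Over all loci compared, 5214 of 10201 were higher there. Some of the marker differences were small, such as 5.78 and 6.04 FPKM for Vsig4, against 5.05 and 12.3 FPKM for Cd68. The part of these markers in the abundance results was not tested. The cholangiocyte markers summed to at most 4.35 FPKM with Krt7 at 0 in every library, and the skeletal muscle markers to at most 0.439 FPKM with Ckm and Acta1 at 0. In pooled tissue, a change in the number of cells of a type and a change in RNA per cell cannot be told apart.

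The 7 mRNAs covered a wide range of levels. Gbe1 had the highest mean over the 6 libraries, at 314 FPKM (rank 237 of the 10201 loci compared), followed by Ppp1r3b at 230 FPKM, Ugp2 at 165 FPKM, Pygl at 111 FPKM, Ppp1r3c at 46.4 FPKM and Pgm1 at 39.0 FPKM. Gys2, the synthase itself, was the lowest at 19.6 FPKM (rank 2520) and was last of the 7 in each of the 6 libraries. Pygl was between 4.78 and 7.46 times as high as Gys2, and Gbe1 between 11.6 and 21.9 times. Gbe1 was first in 5 libraries and second to Ppp1r3b in the WD heavy fraction. The deposited bounds overlapped between neighbours in this order. Even the bounds of Gbe1 and Gys2, at its ends, were separate in the light fractions only, where the lower bound of Gbe1 was 42.2 FPKM in CD and 24.7 FPKM in WD and the upper bound of Gys2 was 36.9 FPKM and 21.9 FPKM. In the Rnor_6.0 assembly, Gbe1 spans chr11:7210208-7485890, Ppp1r3b chr16:60415228-60427474, Ugp2 chr14:106208175-106248539, Pygl chr6:92597705-92643847, Ppp1r3c chr1:255371809-255376833, Pgm1 chr5:118743631-118803055 and Gys2 chr4:176629799-176679815, introns included, and each value is for the whole gene.

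**Figure D1:**
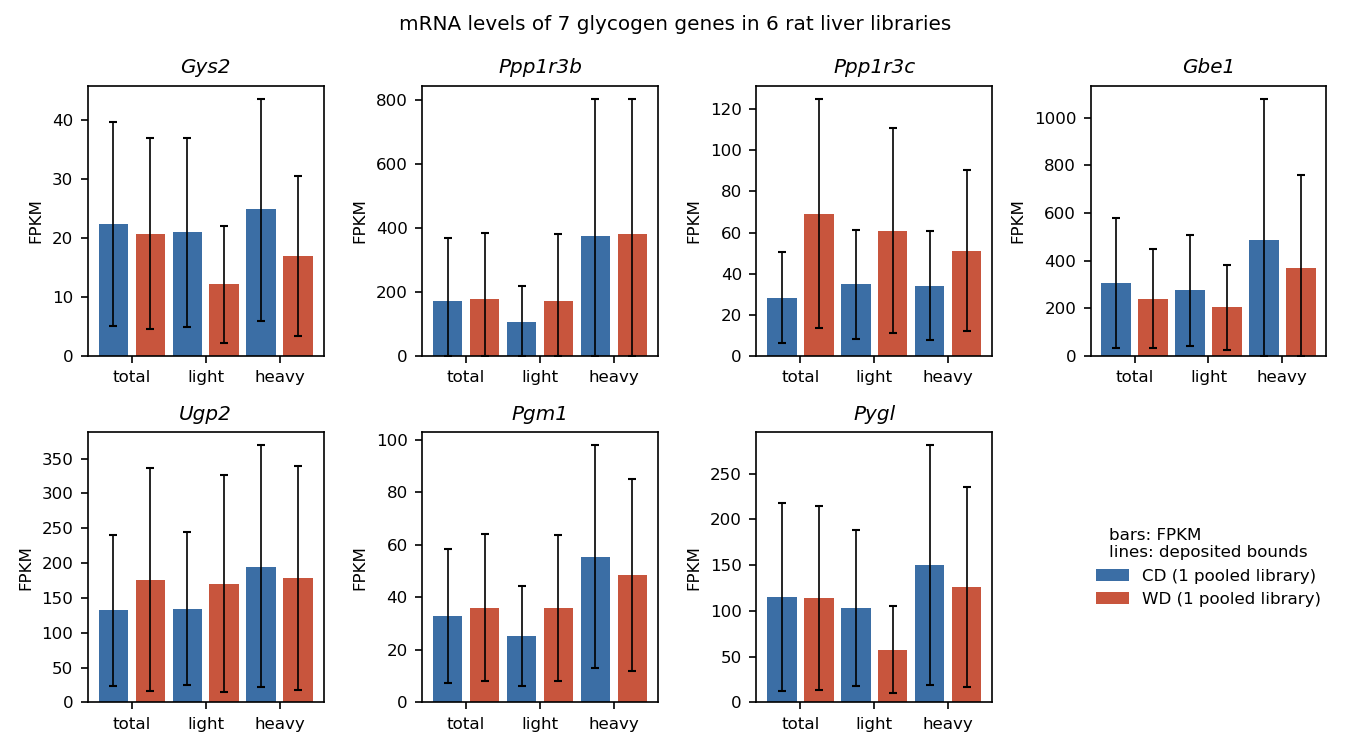
FPKM of each of the 7 mRNAs in total RNA, the light fraction and the heavy fraction, with CD in blue and WD in red; each bar is 1 pooled library and the lines are the bounds deposited with the value. Ppp1r3c is the mRNA with a higher WD than CD bar in all 3 kinds of RNA by at least 1.49-fold, and the bounds overlap throughout.

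The sequences before the transcription start are shown for Ppp1r3c, the mRNA whose abundance differed most between the diets, and for Gys2 and Pygl, enzymes of opposite function whose levels moved alike across the libraries. RefSeq promoter windows of the rat assembly GRCr8 were found for 6 of the 7 genes, not for Ppp1r3b. Each line gives the 250 bases before the annotated start, read from 5' to 3' on the strand of the gene, which is the minus strand for all 3. They lie at chr1:243878528-243878777 (Ppp1r3c), chr4:177137237-177137486 (Gys2) and chr6:94476220-94476469 (Pygl), in the GRCr8 assembly and not the assembly of the expression data. Capitals mark matches, on either strand, to CACGTG (an E-box, bound by basic helix-loop-helix factors such as USF), CCAAT (bound by NF-Y) and GGGCGG (a GC box), and to AGGTCA (a nuclear receptor half-site), TGTTTAC (bound by forkhead factors) and TATAAA.
Ppp1r3c: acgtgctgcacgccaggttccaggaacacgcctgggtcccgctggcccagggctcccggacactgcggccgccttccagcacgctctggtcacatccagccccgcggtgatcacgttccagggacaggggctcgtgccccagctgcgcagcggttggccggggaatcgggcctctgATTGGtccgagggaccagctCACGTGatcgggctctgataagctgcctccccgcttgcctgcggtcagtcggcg
Gys2: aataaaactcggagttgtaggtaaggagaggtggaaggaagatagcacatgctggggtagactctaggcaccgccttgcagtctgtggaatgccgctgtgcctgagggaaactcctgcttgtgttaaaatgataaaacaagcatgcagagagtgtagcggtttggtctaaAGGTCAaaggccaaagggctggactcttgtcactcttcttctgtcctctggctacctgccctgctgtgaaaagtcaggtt
Pygl: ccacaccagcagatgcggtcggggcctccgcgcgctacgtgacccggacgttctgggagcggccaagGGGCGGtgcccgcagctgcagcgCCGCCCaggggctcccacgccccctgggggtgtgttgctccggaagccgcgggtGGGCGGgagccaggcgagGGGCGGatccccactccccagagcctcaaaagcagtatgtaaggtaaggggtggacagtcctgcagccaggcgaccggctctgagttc
Of the 6 promoters, CACGTG was found in that of Ppp1r3c alone, from 54 to 49 bases before the start, and 5.59% of all 33469 windows of this length hold it. Ppp1r3c also has a CCAAT match 74 to 70 bases before the start, a motif in 34.0% of windows, and no GGGCGG. Pygl has 4 GGGCGG matches (30.5% of windows hold at least 1), and Gys2 has AGGTCA from 80 to 75 bases before the start (14.1%). TGTTTAC was in none of the 6 (3.21%), and TATAAA in 1, Pgm1 (12.9%). The share of G and C was 69.2% for Ppp1r3c, 71.2% for Pygl and 49.6% for Gys2. None of the 6 annotated starts begins with C followed by 4 pyrimidines, the start of a terminal oligopyrimidine (TOP) mRNA whose translation is under mTORC1 control, and 2.63% of all windows do. These matches describe letters only, and the motifs were chosen after the promoters had been seen.

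The first comparison asked how the mRNA abundance of these genes differed between the diets, and Ppp1r3c, the PTG subunit, stood out. It was measured at 28.2 FPKM (83 fragments) in CD and 69.0 FPKM (194 fragments) in WD total RNA. The WD value was 2.44 times the CD value, with a counting interval of 1.88 to 3.2. Of the 1506 loci whose mean lay within 2-fold of that of Ppp1r3c, 1.59% had a higher abundance ratio. In the light fraction it went from 34.8 FPKM (70 fragments) to 60.9 FPKM (266 fragments), a ratio of 1.75 (1.34 to 2.31). In the heavy fraction it went from 34.2 FPKM (64 fragments) to 51.1 FPKM (98 fragments), a ratio of 1.49 (1.08 to 2.08). All 3 WD libraries were thus above all 3 CD libraries for this mRNA, whose lowest WD value was 51.1 FPKM and whose highest CD value was 34.8 FPKM.

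The related subunit Ppp1r3b, the GL form typical of liver, had nearly equal values in total RNA and in the heavy fraction. Its level in total RNA was 170 FPKM in CD (bounds, 0 to 369) and 177 FPKM in WD (0 to 383), a ratio of 1.04. In the heavy fraction it was 374 FPKM and 381 FPKM, a ratio of 1.02. In the light fraction it was 107 FPKM in CD and 173 FPKM in WD, a ratio of 1.62, and 13.7% of 408 loci of like level had a higher one. In total RNA, Ppp1r3b was therefore 6.00 times as high as Ppp1r3c in CD and 2.56 times as high in WD.

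The synthase and the phosphorylase, which catalyse opposite reactions, had similar values in total RNA of both diets. Gys2 was at 22.4 FPKM (61 fragments) in CD and 20.7 FPKM (54 fragments) in WD total RNA, a ratio of 0.926 (counting interval, 0.630 to 1.36). Pygl was at 115 FPKM (353 fragments) and 114 FPKM (334 fragments), a ratio of 0.989 (0.849 to 1.15). Both intervals include 1, and that of Pygl is the narrower because it rests on more fragments. Pgm1 was at 32.8 FPKM (78 fragments) and 36.1 FPKM (82 fragments), a ratio of 1.1 (0.796 to 1.52). No difference in abundance was detectable at this depth for these 3 mRNAs.

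For the enzymes without fragment numbers, only the values and their bounds can be given. Ugp2 was at 132 FPKM (bounds, 24.0 to 241) in CD and 176 FPKM (15.7 to 336) in WD total RNA, a ratio of 1.33, and 9.59% of 542 loci of like level had a higher one. Gbe1 was at 307 FPKM (35.1 to 579) and 240 FPKM (31.7 to 448), a ratio of 0.781, and 13.4% of 321 loci of like level had a lower one. Ugp2 was thus on the higher and Gbe1 on the lower side among loci of their level, both well inside the bounds.

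As a group, 4 of the 7 mRNAs were higher and 3 were lower in WD total RNA. The median log2 change was 0.062, against 0.022 over all loci compared, of which 5214 were higher and 4796 lower. At least 1.5-fold higher was 1 of the 7, Ppp1r3c, where 17.7% of all loci passed that ratio, and none had a ratio of at most 0.75, which 22.7% of all loci did. Of the 2284 loci within the range of the members' means, 152 passed the upper and 363 the lower limit. Of the 4 mRNAs with fragments, the counting interval lay above 1 for Ppp1r3c and below 1 for none, and the shares of all loci with fragments were 4.88% and 5.21%. With each library rescaled to an equal sum, 5 were higher, as the change of Pygl went from -0.016 to 0.080. The median locus had 14 fragments in each total RNA library, fewer than any of these 4 mRNAs, so these shares come from wider intervals.

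**Figure D2:**
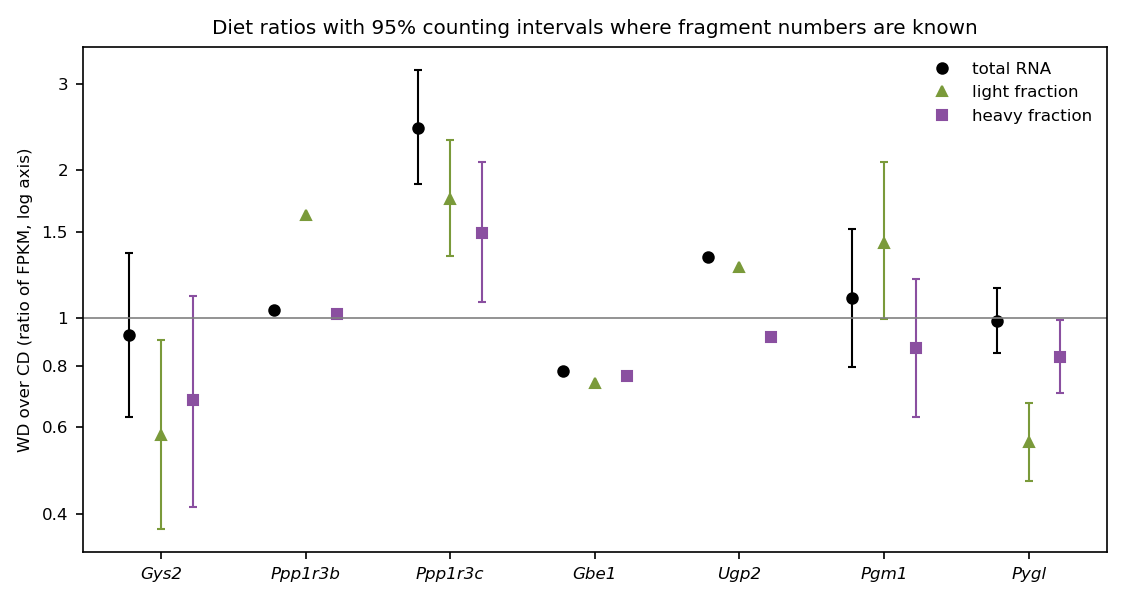
Ratio of WD to CD FPKM for each of the 7 mRNAs on a log axis, in total RNA (circles), the light fraction (triangles) and the heavy fraction (squares); lines are 95% counting intervals, drawn for the 4 mRNAs with inferred fragments. The 3 intervals of Ppp1r3c lie above 1, and those of Gys2 and Pygl in the light fraction lie below 1.

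In the fractions, Gys2 and Pygl were both lower in WD, chiefly in the light fraction. Gys2 was at 20.9 FPKM (39 fragments) in the CD and 12.1 FPKM (49 fragments) in the WD light fraction, a ratio of 0.580 (0.372 to 0.904). The WD library holds more fragments in spite of the lower FPKM because it was sequenced more deeply. Pygl was at 103 FPKM (216 fragments) and 57.8 FPKM (263 fragments), a ratio of 0.560 (0.466 to 0.674). Among loci of like level, 11.7% of 2720 had a lower light fraction ratio than Gys2 and 13.0% of 740 a lower one than Pygl. In the heavy fraction, Gys2 was at 24.8 FPKM (43 fragments) in CD and 16.9 FPKM (30 fragments) in WD, a ratio of 0.682 (0.413 to 1.11), and Pygl at 150 FPKM (293 fragments) and 126 FPKM (251 fragments), a ratio of 0.836 (0.704 to 0.993). The interval of Gys2 in the heavy fraction includes 1, and that of Pygl ends just below it.

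The enzymes that supply and branch the chains differed from each other. Pgm1 was at 25.2 FPKM (41 fragments) in the CD and 35.9 FPKM (127 fragments) in the WD light fraction, a ratio of 1.42 (0.995 to 2.08). In the heavy fraction it was at 55.5 FPKM (84 fragments) and 48.4 FPKM (75 fragments), a ratio of 0.872 (0.630 to 1.20). Both intervals include 1. Ugp2 followed the same signs, with 134 FPKM in CD and 170 FPKM in WD in the light fraction and 195 FPKM and 179 FPKM in the heavy fraction. Gbe1 was lower in WD in both, with 276 FPKM and 204 FPKM in the light and 485 FPKM and 370 FPKM in the heavy fraction, ratios of 0.738 and 0.762 that are close to its ratio in total RNA.

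Counted over the 7 mRNAs, 2 (Ppp1r3b and Ppp1r3c) were at least 1.5-fold higher in the WD light fraction, where 25.9% of all loci were, and 3 (Gys2, Gbe1 and Pygl) had a ratio of at most 0.75, as had 26.8% of all loci. The counting interval was above 1 for 1 and below 1 for 2 of the 4 mRNAs with fragments, compared with 9.78% and 10.2% of all loci. In the heavy fraction, none was at least 1.5-fold higher (21.7% of all loci) and 1, Gys2, had a ratio of at most 0.75 (25.8%). The heavy fraction interval lay above 1 for Ppp1r3c and below 1 for Pygl, shares of all loci being 4.99% and 5.29%. The median log2 change of the 7 was 0.34 in the light and -0.20 in the heavy fraction, against 0.017 and -0.015 over all loci compared. Of the 2284 loci within the range of the members' means, 359 were at least 1.5-fold higher and 631 had a ratio of at most 0.75 in the light fraction. In the heavy fraction, these numbers were 236 and 410.

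These fraction values depend on how the libraries are scaled against each other. Setting every library to an equal FPKM sum moved the median light fraction change of all loci from 0.017 to -0.29, that of the heavy to light difference in WD from 0.00 to 0.26 and that of ribosome density from -0.021 to 0.28. Under this scaling, the light fraction change of Ugp2 went from 0.34 to -0.011, that of Ppp1r3c from 0.80 to 0.45 and that of Pygl from -0.84 to -1.19, and the heavy fraction change of Ppp1r3b went from 0.024 to 0.00. Relative to the median of all loci, however, each of the 7 mRNAs kept the direction of its change in total RNA and in both fractions. The number of the 7 that were higher in the light fraction was 4 as deposited and 3 after rescaling. The number at least 1.5-fold higher there went from 2 to 0 (17.4% of all loci after rescaling), as the change of Ppp1r3b went from 0.69 to 0.34. The number with a heavy fraction ratio of at most 0.75 went from 1 to 2, Gys2 and Gbe1 (26.6% of all loci).

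The ratio of 2 mRNAs within a library does not depend on this scaling. It was compared between the diets for the 6 pairs of the 4 mRNAs with fragments in each kind of RNA, 18 comparisons whose intervals were not adjusted for their number. Relative to Pygl, Ppp1r3c went from 0.245 in CD to 0.605 in WD total RNA, a change of 2.47-fold (counting interval, 1.82 to 3.37), and it differed by 3.12-fold (2.24 to 4.36) in the light and by 1.79-fold (1.23 to 2.60) in the heavy fraction. The ratio of Gys2 to Ppp1r3c was 0.792 (CD) and 0.300 (WD) in total RNA, and its counting interval excluded 1 in all 3 kinds of RNA. Against Pgm1, the level of Ppp1r3c per length was lower in CD, at a ratio of 0.861, and higher in WD total RNA, at 1.91.

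The ratio of Gys2 to Pygl, by contrast, differed by less than counting error in each kind of RNA. In total RNA it was 0.194 for CD and 0.181 for WD, followed by 0.203 and 0.209 in the light fraction, and 0.165 and 0.134 in the heavy fraction. The WD to CD quotients of these ratios were 0.936 (0.617 to 1.42), 1.03 (0.637 to 1.68) and 0.814 (0.478 to 1.37). The ratio of Pgm1 to Pygl went from 0.244 to 0.622 in the light fraction, a quotient of 2.54 (1.69 to 3.88), whereas the quotients of total RNA and the heavy fraction, 1.11 (0.776 to 1.59) and 1.04 (0.719 to 1.51), had intervals that include 1. In all, the interval excluded 1 for 3 of the 6 pairs in total RNA, 4 in the light fraction and 3 in the heavy fraction. Each of the 3 pairs in total RNA, and each of the 3 in the heavy fraction, contains Ppp1r3c. Because the pairs share members, these counts are not counts of separate differences. The share for pairs of other loci was not computed.

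The distribution of an mRNA between the heavy and the light fraction, here called ribosome density, was then described within each diet. In CD, 6 of the 7 mRNAs were higher in the heavy than in the light fraction. Ppp1r3b had the highest ratio at 3.50, followed by Pgm1 at 2.2 (counting interval, 1.5 to 3.28), Gbe1 at 1.76, Pygl at 1.46 (1.22 to 1.75), Ugp2 at 1.45 and Gys2 at 1.18 (0.75 to 1.88). Ppp1r3c, at 0.982 (0.689 to 1.40), was the lowest. The targeting subunits of the phosphatase thus stood at opposite ends of this order. In WD, Ppp1r3b was again the highest at 2.2 and Ppp1r3c again the lowest at 0.840 (0.659 to 1.06), while Pygl was second at 2.17 (1.82 to 2.6). With the libraries rescaled, Ppp1r3c turned from -0.25 to 0.057 on the log2 scale in WD, so that all 7 were then higher in the heavy fraction.

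In between, Gbe1 was at 1.81, Gys2 at 1.39 (0.855 to 2.24), Pgm1 at 1.35 (0.998 to 1.81) and Ugp2 at 1.05 in WD. A ratio of at least 1.5 was found for 3 of the 7 in CD, where 32.9% of all loci had one, and for 3 in WD, against 31.4%. With the libraries rescaled, 5 of the 7 had such a ratio in WD (Gys2, Ppp1r3b, Gbe1, Pgm1 and Pygl), as had 40.2% of all loci. None had a ratio of at most 0.75, which 36.6% of all loci had in CD and 38.5% in WD. The counting interval lay above 1 for 2 of the 4 mRNAs with fragments in CD and for 1 in WD, compared with 16.7% and 20.0% of all loci with fragments, and below 1 for none, compared with 14.6% and 18.3%. The median log2 difference between the heavy and the light fraction was 0.54 in CD and 0.48 in WD, against 0.012 and 0.00 over all loci compared, and against 0.15 and 0.22 over the 2284 loci within the range of the members' means.

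**Figure D3:**
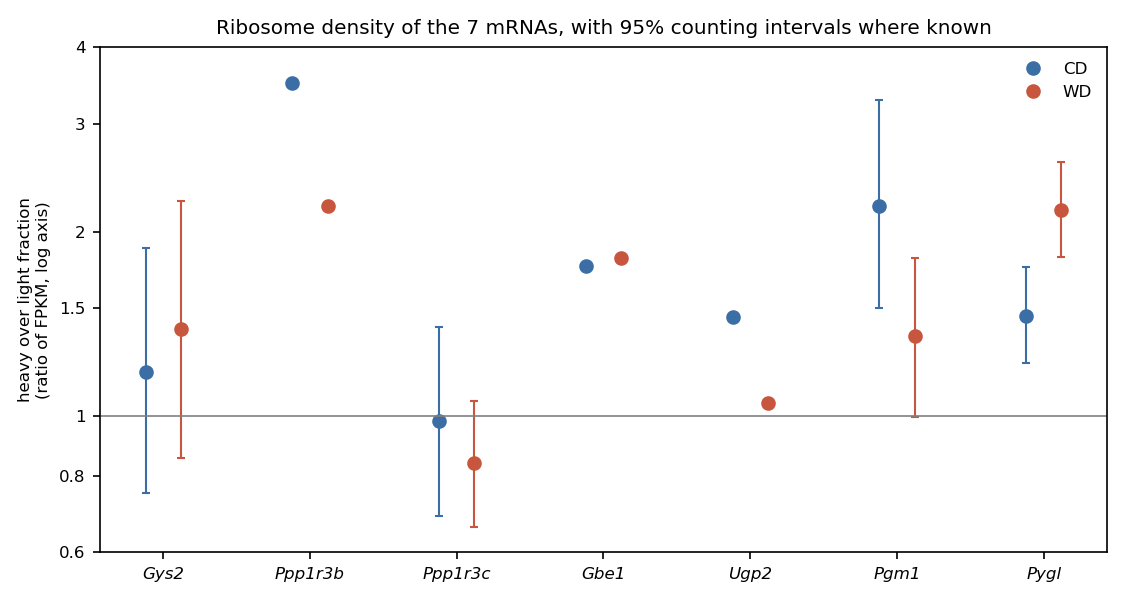
Ratio of heavy to light fraction FPKM on a log axis for each of the 7 mRNAs in CD (blue) and WD (red), 1 pooled library per fraction and diet; lines are 95% counting intervals for the 4 mRNAs with inferred fragments. The ratio of Pygl is 1.46 in CD and 2.17 in WD, and those of Ppp1r3b, Ppp1r3c, Pgm1 and Ugp2 are lower in WD.

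Comparing these ratios between the diets gave an interval that excluded 1 for 1 of the 4 mRNAs with fragments, the phosphorylase. For Pygl, the ribosome density in WD was 1.49 times that in CD (counting interval, 1.16 to 1.93), since its light fraction value was lower by more than its heavy fraction value. For Pgm1 the quotient was 0.613 with an interval of 0.371 to 1.0042, which just includes 1. For Gys2 it was 1.18 (0.599 to 2.31) and for Ppp1r3c 0.856 (0.556 to 1.32), so that no difference was detectable at this depth. Without fragment numbers, the quotient was 0.629 for Ppp1r3b, 0.722 for Ugp2 and 1.03 for Gbe1. Among loci of like level, 14.0% of 408 had a lower quotient than Ppp1r3b, 17.5% of 542 than Ugp2 and 17.4% of 1736 than Pgm1, and 25.3% of 740 had a higher one than Pygl.

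Of the 7 mRNAs, 3 had a higher and 4 a lower ribosome density in WD, with a median log2 change of -0.23 against -0.021 over all loci compared. None was at least 1.5-fold higher (27.7% of all loci), and 3 (Ppp1r3b, Ugp2 and Pgm1) had a ratio of at most 0.75 (36.1%). At equal library sums, these counts were 1, Pygl (37.9% of all loci), and 0 (27.2%). With the same limits on CD over WD, the direction in which the study's methods take the ratio, 1 was higher in WD, Pygl (32.9%), and 2 were lower, Ppp1r3b and Pgm1 (30.9%). The counting interval lay above 1 for Pygl and below 1 for none of the 4 mRNAs, where 6.72% and 5.96% of all loci did so. As deposited, 492 of the 2284 loci within the range of the members' means were at least 1.5-fold higher in WD ribosome density, and 595 had a ratio of at most 0.75. After rescaling, the median of the 7 was 0.10 against 0.28 for all loci, and the change of Ppp1r3c turned from -0.23 to 0.10. That of Pygl was 0.91 under this scaling and 0.60 relative to the median of all loci.

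Taking total RNA as the denominator gave another picture, because all 7 mRNAs were then lower in WD. The quotients ran from 0.612 for Ppp1r3c to 0.976 for Gbe1, with 0.974 for Ppp1r3b, 0.845 for Pygl, 0.793 for Pgm1, 0.737 for Gys2 and 0.690 for Ugp2. Over all loci compared, 49.6% were below 1, 31.0% had a ratio of at most 0.75, as had 3 of the 7, and 26.7% were at least 1.5-fold higher, as was none of the 7. Of the 2284 loci within the range of the members' means, 1161 were lower, 490 had a ratio of at most 0.75 and 338 were at least 1.5-fold higher. Of the 4 counting intervals, that of Ppp1r3c excluded 1 (0.400 to 0.939), and those of Pygl (0.670 to 1.07), Pgm1 (0.499 to 1.26) and Gys2 (0.389 to 1.39) included it. The share of all loci with such an interval was not computed. The quotient also rests on the same total RNA values as the abundance ratio, so the 2 are not separate results. For Pygl, Gys2 and Gbe1 the direction therefore turned with the choice of denominator. For Ppp1r3c, the value states that its WD level was 2.44 times the CD level in total RNA but 1.49 times in the heavy fraction.

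**Figure D4:**
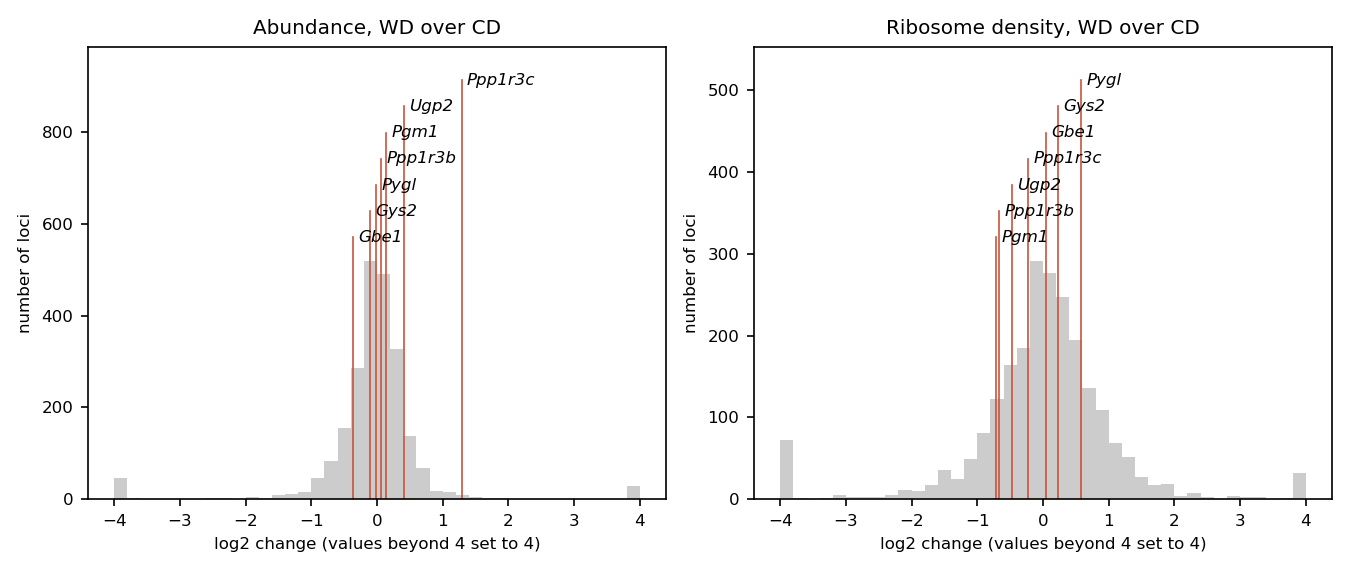
Number of loci by log2 change from CD to WD in abundance (left) and ribosome density (right), over the 2284 loci with a mean FPKM within the range of the 7 mRNAs, which are marked by red lines. Ppp1r3c lies at 1.29 in abundance, in the right tail, and the other 6 lie between -0.36 and 0.41; in ribosome density the 7 lie between -0.71 and 0.58, within the bulk of the loci.

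The genes with the most similar patterns over the 6 libraries were found by the root mean square (RMS) difference of centred log2 values, among the 3798 loci whose mean reached 10 FPKM. Closest to Ppp1r3c was Cyp7a1, the rate-limiting enzyme of bile acid synthesis, at a difference of 0.195. Cyp7a1 was at 22.2 (CD) and 50.6 FPKM (WD) in total RNA, 30.6 and 58.8 FPKM in the light fraction, and 28.4 and 56.6 FPKM in the heavy fraction. The second was Gpnmb, at 0.230. Ppp1r3c had the most distant neighbours of the 7, whereas the closest neighbour of each of the other 6 lay between 0.0572 and 0.0931.

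For Ugp2 the closest was G0s2, an inhibitor of adipose triglyceride lipase, which was at 235 FPKM in CD and 352 FPKM in WD total RNA. For Gys2 it was Prkab1, the beta subunit of the AMP-activated protein kinase, at 63.2 and 52.8 FPKM in total RNA and 57.3 and 35.2 FPKM in the light fraction, and then Orm1, an acute-phase protein. For Pygl they were Fbxo21 and Gk, the glycerol kinase. Pgm1 had Ak4, a mitochondrial adenylate kinase, and Kynu, kynureninase, Gbe1 had Cd82 as the second closest, and Ppp1r3b had Ipo5, a nuclear import receptor, and Scly, selenocysteine lyase. Among the 7 themselves, the smallest difference was 0.218, for Gys2 with Pygl and for Ugp2 with Pgm1, and the largest was 0.786, for Ppp1r3b with Ppp1r3c.

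The rest of the pathway was described with a list of 49 other genes, assigned from general knowledge to glycogen metabolism and its control. Of these, 47 were found, 35 had a mean of at least 1 FPKM and 20 of the 35 had fragment numbers. G6pc, the glucose 6-phosphatase catalytic subunit, was not used because it shares a locus with Aoc3. In total RNA, 15 of the 35 were higher and 20 lower in WD, with a median log2 change of -0.072, and 4 were at least 1.5-fold higher and 7 had a ratio of at most 0.75, where 17.7% and 22.7% of all loci did. The counting interval lay above 1 for none and below 1 for 2 of the 20, against 4.88% and 5.21% of all loci with fragments. These 2, named after their values were seen, were Slc37a4, the glucose 6-phosphate transporter, for which total RNA held 776 fragments in CD against 636 in WD (ratio 0.857, interval 0.770 to 0.953), and Prkaca, a catalytic subunit of protein kinase A, with 56 and 34 (0.636, 0.402 to 0.989). With the libraries rescaled, both intervals include 1, with upper ends of 1.02 and 1.06. In ribosome density, 24 were higher and 11 lower, with a median of 0.27, where 4931 of all loci were higher and 5172 lower with a median of -0.021. The interval lay above 1 for 2, Slc37a4 (1.26, 1.06 to 1.49) and Pgm2l1 (5.50, 1.18 to 31.3), and below 1 for 1, Nhlrc1, the ligase malin, which had 5 heavy fragments and none in the light fraction for CD against 1 heavy and 8 light fragments for WD (interval, 0 to 0.907). Over all loci with fragments, 6.72% lay above and 5.96% below 1. With the libraries rescaled, the interval of Nhlrc1 ends at 1.14 and includes 1.

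The isoforms of muscle and other tissues were near the limit of detection. Gys1, the muscle synthase, had between 1 and 5 fragments per library, where Gys2 had between 30 and 61. Pygb, the brain phosphorylase, had between 0 and 8 fragments, and Pygm, the muscle phosphorylase, had 1 in WD total RNA, 2 in the WD light fraction and none in the other 4 libraries. Of the other targeting subunits, Ppp1r3d had between 1 and 6 fragments, Ppp1r3g was listed at 0 except for 1.59 FPKM in the WD heavy fraction, and Ppp1r3a and Ppp1r3e were listed at 0 in every library. Of those found, Ppp1r3b and Ppp1r3c were thus the members of this family with more than 1.59 FPKM in any library. Gyg1, glycogenin, the protein primer of the granule, was at 2.5 and 4.29 FPKM in total RNA and listed at 0 in both heavy fractions. Of the 7 other genes above 1 FPKM that were listed under synthesis, 5 were higher in WD total RNA, with a median of 0.49 on the log2 scale. Over all loci compared, 5214 of 10201 were higher. The list rests on general knowledge, and the part of each gene in glycogen synthesis was not tested. Among the listed genes with a Pgm name, Pgm2 was at 1.92 and 2.74 FPKM, Pgm3 at 10.4 and 5.17 FPKM and Pgm5 at 1.16 and 3.04 FPKM in total RNA.

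Among the other genes of breakdown, Gaa, the lysosomal glucosidase, had the largest abundance change at 0.31 on the log2 scale (counting interval of its ratio, 0.716 to 2.19), and G6pc3 the largest in ribosome density at 0.83 with 3 heavy fragments in WD. Of the phosphorylase kinase subunits, Phkb was at 12.5 FPKM in CD and 8.72 FPKM in WD total RNA, Phka1 at 2.94 and 4.34 FPKM and Phkg2, the liver catalytic subunit, at 6.49 and 6.16 FPKM. The ribosome density of Phkg2 was higher in WD by 1.35 on the log2 scale. Phka2, the liver alpha subunit, had at most 3 fragments in any library, and Phkg1 was listed at 0.

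Of the 4 other listed phosphatase subunits above 1 FPKM, all were lower in WD total RNA, where 4796 of the 10201 loci compared were lower. The members Ppp1r3b and Ppp1r3c, also subunits of this phosphatase, were higher there, with ratios of 1.04 and 2.44. The changes of the 4 others ran from -0.62 for Ppp1r3d, which had 5 and 3 fragments (interval of its ratio, 0.0974 to 3.22), to -0.13 for Ppp1cb. Ppp1cb had 79 and 69 fragments (ratio 0.914, 0.651 to 1.28), and both intervals include 1. The catalytic subunit Ppp1ca had the largest ribosome density change of the group at 1.38. Of the 6 kinases that act on glycogen synthase or belong to the AMP-activated kinase, 5 were lower in WD total RNA. For Prkaa2, Prkab1 and Csnk2a1, the counting intervals (0.636 to 1.12, 0.641 to 1.08 and 0.458 to 1.33) include 1. Gsk3a was at 16.8 and 11.7 FPKM, Gsk3b at 8.41 and 10.2 FPKM, and Prkaa1 had the largest change at -0.63 (counting interval of its ratio, 0.303 to 1.29). The log2 difference in ribosome density of Gsk3b was -1.54, as its light fraction value went from 7.52 to 18.9 FPKM. In the group of glucose entry and hormone input, Gcgr, the glucagon receptor, had the largest ribosome density change at 1.31, with 10.3 FPKM in the CD and 20.9 FPKM in the WD heavy fraction.

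**Figure D5:**
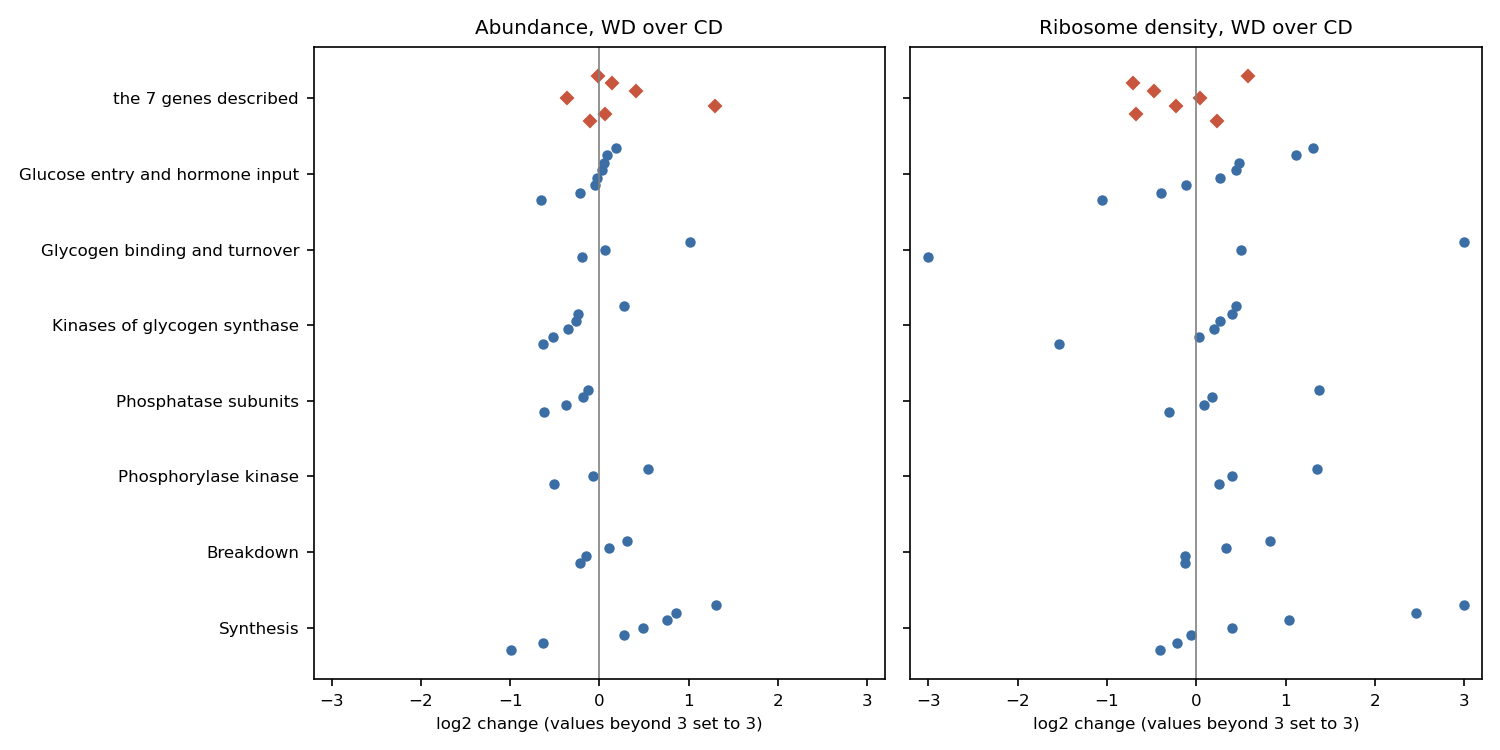
Log2 change from CD to WD in abundance (left) and ribosome density (right) for the 35 other genes of the pathway with a mean of at least 1 FPKM (blue), by role, and for the 7 genes described (red); each point is 1 gene and the 2 diets are 1 pooled library per kind of RNA. The points of most roles lie on both sides of 0, and values beyond 3 are drawn at the edge of the right panel, among them Pgm5 and Nhlrc1, which have 8 or fewer fragments in each fraction library.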

How the data were processed

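Ribosomal RNA was depleted, and TopHat mapped the reads on Rnor_6.0. The authors deposited FPKM values, normalized between the libraries with Cuffnorm of the Cufflinks pipeline, together with a lower and an upper bound in FPKM for each value. Their methods describe a further route for Riboseq reads, and whether the gradient fractions took it is not certain. The annotation is not given in the sources used here. Here, 10201 named loci were compared, those whose estimate had not failed and whose mean reached 1 FPKM. A log2 change was taken after adding 0.1 FPKM, which understates changes of low genes, and the limits of at least 1.5 and at most 0.75 are numbers that the study's methods apply to ribosome density of CD over WD. Here they were applied to WD over CD and also to abundance and to each fraction. The turned ratio and rescaled counts past these limits were added after seeing the data.

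Fragment numbers were inferred where values divided by 1 factor per library (its most common ratio to the CD heavy fraction) were whole within 0.002 plus 3e-05 per fragment (77.3% of loci compared). The numbers are estimates, since multiples would give the same FPKM. Intervals for ratios of 2 libraries are exact (Clopper-Pearson), those for quotients of ratios come from the conditional odds ratio, both at 95%. Calculations used scipy 1.17.1, numpy 2.4.6 and pandas 2.3.3 under Python 3.11.15, with plots from matplotlib 3.10.9, and the scripts were tested on simulated data.

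The members, gene lists and marker lists were chosen with earlier results of these data known, and the motifs after the promoters had been seen. Named were all 7 members, the isoform partners of members, the other pathway gene with the largest change by abundance and by ribosome density in each role, and the 2 loci closest in pattern to each member, of which some are not reported here. Alternatives were other pseudocounts, filters and scalings, summed loci, and total RNA as denominator. No column of another sample was present (0 columns).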

Additional observations from a re-analysis of the deposited data

Results flagged for a closer look

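For Pygl, the diet change differed between the heavy and the light fraction. The change in ribosome density came to 0.58 (log2), with a counting interval of the quotient from 1.16 to 1.93 that excludes 1. With 1 library per fraction and diet, this compares 4 libraries and not the diets. With total RNA as the denominator the change was -0.24.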

How the results depend on the processing

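No paired analysis was possible because each group is 1 pooled library, and for the same reason no replicate could be left out. Of 217 values of single member changes under the alternatives, 207 stayed on the side of 0 and within the counting interval of the value as deposited (for the 3 mRNAs without fragments, within the median half-width of the others), and 10 did not. Rescaling each library to the same FPKM sum turned the median light fraction change of the 7 to -0.011 and their median ribosome density change to 0.10. It also changed the number past 1.5 to 0 in the light fraction, 5 in heavy over light in WD and 1 in ribosome density. The number at most 0.75 went to 2 in the heavy fraction and 0 in ribosome density. Before rescaling, the FPKM sum of named loci was 867734 in the WD and 679535 in the CD light fraction. In the heavy fraction it was 700724 and 689208, so rescaling lowered WD relative to CD values in both fractions. Why the sums differ was not tested. With the ratio turned to CD over WD, 1 was past the upper limit in the heavy fraction (Ppp1r3c) and 1 in ribosome density (Pygl), and 0 past the lower limit in the heavy fraction, which follows from the unequal limits. When total RNA was the denominator of ribosome density, 0 members were higher and 7 lower, and the cause was not tested. For the other pathway genes, a mean of at least 10 FPKM left 5 higher and 15 lower by abundance, with a median log2 change of -0.20. By ribosome density it left 14 higher and 6 lower, while a mean of at least 0.1 FPKM or no filter gave 26 higher and 18 lower. The number of genes kept differs between the filters, and at 10 FPKM the balance of higher and lower genes by abundance also moved toward lower. For the share of all loci past a ratio, that of at least 1.5 in abundance was 8.77% at a mean of at least 10 FPKM. The counting intervals of the 4 mRNAs with fragments had a median half-width of 0.42 on the log2 scale for abundance and 0.67 for ribosome density. Variation between rats and pools could not be measured and comes on top of counting error. These widths are therefore no detection limit for a difference between the diets.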
